A study of Mus musculus with 4 samples.

Results

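The junction genes of endothelial cells (ECs) examined here were Cldn5, Esam, F11r, Jam2, Jam3, Tjp1, Ocln, Cgn and Ctnnb1, taken by their symbols. They are 9 of the 24421 genes in the count tables. Lung ECs came from 2 inducible ADAR1 KO (i-KO) mice of separate litters, male, of the C57/BL6 strain and 2 weeks old by the labels, and 1 dish of each mouse was treated with 4-OH-Tamoxifen (TM) while the other stayed non-treated (CON). Both dishes carried the floxed ADAR1 gene and the inducible Cre recombinase, whose promoter is not given in the sources used here. TM activates this Cre, which removes exons 12 to 15 of ADAR1. This gave 4 libraries, n = 2 per group and paired by mouse, and values are listed throughout in the order CON and TM of the first mouse (EC1), then CON and TM of the second (EC2). The cells had been selected with CD31 and ICAM-2 beads and cultured before treatment. A response to TM itself and one to the loss of ADAR1 cannot be told apart, since no TM-treated culture without the deletion was analysed here.

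ECs line vessels as a sheet, and neighbouring cells are held together by adherens junctions and sealed by tight junctions. Claudins, occludin and the junctional adhesion molecules span the membrane and meet their counterparts on the next cell, while scaffold proteins such as ZO-1 tie them to the actin cytoskeleton. Claudin-5 is the claudin typical of endothelium, and in adherens junctions beta-catenin binds VE-cadherin. ADAR1 is an enzyme that converts adenosine to inosine in double-stranded RNA, and inosine is read as G by the sequencer.

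The libraries were read in 2 ways. The count tables placed 1095488 to 1778732 reads on genes, 0.823% to 0.858% of all their rows, so that 3 counts, the limit that a 0 leaves, stood for 1.69 to 2.74 CPM (counts per 1000000 counts on genes). The site table lists positions with an altered base and their read depth, and a gene's exonic depth was taken as the median depth at its listed exon and UTR sites, per 100000000 of the reads in all rows of the library's count table (scaled depth). Over exons 12 to 14 Adar, the gene of ADAR1, had a scaled depth of 109 in EC1 CON (3 sites) and 118 in EC2 CON (1 site). In TM it had no listed site there in EC1, which does not show a lack of coverage, and 31.6 in EC2 (2 sites). Over exons 2 to 11 its scaled depth was higher in TM in both mice, at 115, 504, 122 and 466. The summed scaled depth of 15 endothelial markers was 24576, 21290, 30548 and 23303, lower in TM in both mice. By counts they summed to 1796, 1662, 1419 and 1702 CPM, lower in TM in EC1 and higher in EC2. The median log2 fold change over the 13 tested was -0.39 by depth and -0.15 by counts. Within this list Cdh5, the gene of VE-cadherin, was at a scaled depth of 4730, 4401, 5316 and 4979 and Pecam1, the gene of CD31, at 2247, 1466, 2750 and 1692. Of 16 epithelial markers 10 had no listed exonic site, Epcam and Cdh1 among them, and the list summed to 39.1 to 95.6. The 8 leukocyte markers summed to 20.9 to 36.8, and the 4 mesothelial markers to 12.8 to 36.2. The 11 fibroblast and smooth muscle markers summed to 599 and 944 in CON but 206 and 323 in TM.

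By exonic depth the junction genes covered a wide range of levels. Cldn5 and Ctnnb1, the gene of beta-catenin, were the most abundant, followed by F11r and Tjp1, then Esam and Jam3, while Jam2, Ocln and Cgn were near the limit of detection. In CON, Cldn5 stood above Ctnnb1 in both mice, with 2236 against 2100 in EC1 and 3015 against 2544 in EC2. In TM the order was the other way in both mice, with 909 for Cldn5 against 1826 for Ctnnb1 in EC1 and 739 against 2019 in EC2. F11r and Tjp1 lay side by side, at 609 and 599 in EC1 CON and at 793 and 632 in EC2 TM, and their groups overlapped. Among the 6836 genes with at least 3 listed exonic sites in each library, Cldn5 ranked at the 98.0th percentile in both CON libraries. In TM it ranked at the 94.5th in EC1 and the 91.4th in EC2, whereas Ctnnb1 stayed between the 97.1th and the 97.9th percentile in the 4 libraries.

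**Figure D1:**
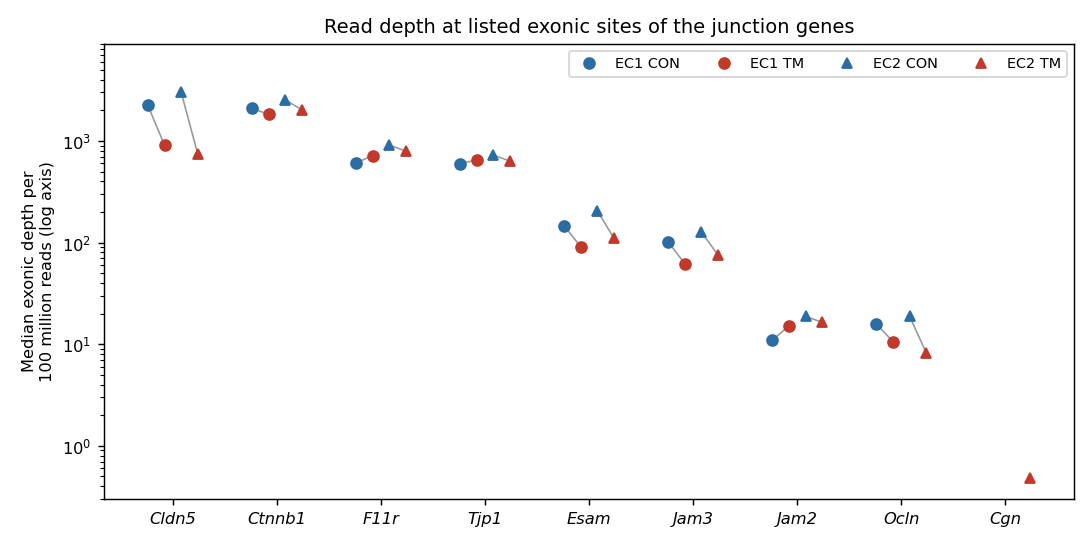
Scaled depth, the median exonic depth per 100000000 reads (log axis), of the 9 junction genes, with circles for EC1, triangles for EC2, blue for CON, red for TM and grey lines between the libraries of a mouse. The TM values of Cldn5, 909 and 739, sit below its CON values, 2236 and 3015, while the points of F11r and Tjp1 overlap and Cgn has a single point at 0.48.

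Cldn5 was lower in TM than in CON in both readouts and in both mice. The gene lies on the plus strand of chromosome 16 (chr16:18776847-18778262, mm10) and consists of 1 exon of 1416 bases. Its counts were 47, 23, 57 and 22, or 41.8, 20.8, 52.0 and 12.5 CPM, so that both TM libraries were below both CON libraries. The log2 fold change of counts was -1.52 (standard error 0.41, 95% confidence interval -2.37 to -0.68, Benjamini-Hochberg adjusted p = 0.0176, edgeR quasi-likelihood test), which is 2.87-fold lower in TM. Of the 7899 genes tested, 3.35% were called lower in TM and 195 had a larger fall than Cldn5. With the mouse as a replicate block, which called 7.39% of genes lower, its edgeR adjusted p was 0.00188. The call rests on both EC2 libraries, since adjusted p was 0.0997 without EC2 CON and 0.165 without EC2 TM. DESeq2 gave the same size of change, -1.51, but an adjusted p of 0.169 (edgeR and DESeq2 alternatives and libraries left out: 0.00188 to 0.221).

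The scaled depth of Cldn5 was 2236, 909, 3015 and 739, from 31, 19, 35 and 21 listed sites. TM was at 0.406 times the CON depth in EC1 and at 0.245 times in EC2. The log2 fold change was -1.66 (standard error 0.31, 95% confidence interval -2.31 to -1.02, limma adjusted p = 0.000366), or 3.17-fold lower in TM, and 61 of the 6836 genes tested had a larger fall. On this readout 5.44% of the genes were called lower. Without EC1 TM the adjusted p was 0.0531 and without EC2 TM it was 0.157, with log2 fold changes of -1.81 and -1.51. The summed scaled depths of the endothelial and of the fibroblast and smooth muscle markers were also lower in TM in both mice. The summed counts of the endothelial markers were lower in EC1 but higher in EC2, as given above. The epithelial sum of depth was higher in TM in both mice, at 39.1, 95.6, 50.2 and 69.0, from 2, 4, 3 and 4 genes with a listed site. Its summed counts were 92.2, 89.4, 70.4 and 74.2 CPM, lower in TM in EC1 and higher in EC2. The leukocyte and mesothelial sums of depth went opposite ways in the 2 mice. The part of these cells in the result was not tested. Of the endothelial markers, Sox18, a transcription factor, was called lower in both readouts, at a scaled depth of 1364, 432, 1662 and 402 (log2 fold change -1.85, limma adjusted p = 3.19e-05) and 41.8, 16.3, 50.2 and 10.8 CPM (-1.79, edgeR adjusted p = 0.00541). With the mouse as a replicate block, limma called 5 of the 13 tested lower (Erg, Icam2, Pecam1, Sox18 and Tie1, where 9.7% of all genes were). On counts edgeR with the block called 2 lower, where 7.39% of all genes were. DESeq2 called 0 of 15, with 2 at an unadjusted p under 0.05. Of 4 lymphatic endothelial markers, 4 were tested by depth and 1 called lower, where 5.44% of all genes were. By counts 3 were tested and 1 called lower, where 3.35% were. Both calls were of Prox1, the lymphatic endothelial regulator, at a scaled depth of 459, 165, 559 and 175 (log2 fold change -1.57, limma adjusted p = 0.000143). Its counts gave -1.46 (edgeR adjusted p = 0.0109). DESeq2 did not call Prox1, at an adjusted p of 0.0836, or 0.117 with the block. The summed scaled depth of the fibroblast and smooth muscle markers was lower too, as given above, although their summed counts were 593, 604, 533 and 502 CPM. A gene without a listed exonic site adds 0 to such a sum, and 9, 6, 10 and 9 of these 11 markers had a listed site. In RNA from a whole culture, fewer cells of a type and less RNA per cell cannot be told apart.

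The fall was seen in the coding part and in the 3′ UTR of Cldn5. Over the coding part the median depth was 1607, 488, 1924 and 475, and over the 3′ UTR it was 2396, 923, 3161 and 905, so that TM was at 0.304 and 0.247 times CON in the coding part and at 0.385 and 0.286 times in the 3′ UTR. Single sites ranged from 285 to 3193 in EC1 CON and from 1379 to 4447 in EC2 CON. In TM they ranged from 375 to 1094 in EC1 and from 349 to 1083 in EC2. The highest TM site of each mouse was thus below the CON median of the same mouse, although few sites are listed in both libraries. At the 2 exonic sites listed in both EC1 libraries the median depth was 3577.5 reads in CON and 1240 in TM, and at the 1 such site of EC2 it was 2379 and 849 reads, without scaling.

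**Figure D2:**
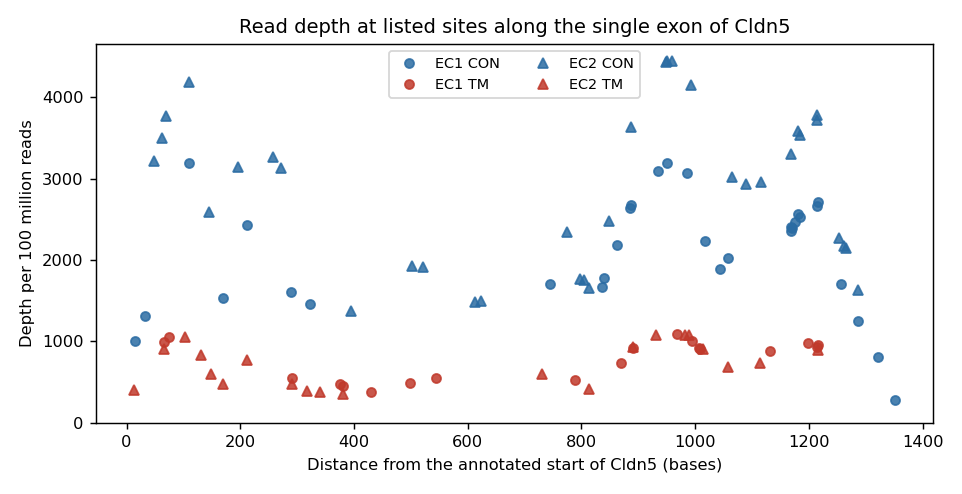
Depth per 100000000 reads at each listed site along the 1 exon of Cldn5, against the distance in bases from its annotated start, with CON in blue, TM in red, circles for EC1 and triangles for EC2. TM sites lie at or below 1094 wherever they are listed, while most CON sites lie above it.

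Of the other transmembrane adhesion proteins, Esam and Jam3 were lower in TM by exonic depth in both mice, at sizes that the main test did not call. Esam, an immunoglobulin-family adhesion molecule of endothelial tight junctions, had scaled depths of 147, 90.7, 204 and 110, from 3, 4, 13 and 9 sites. The groups did not overlap, and the log2 fold change was -0.79 (standard error 0.28, 95% confidence interval -1.37 to -0.21, limma adjusted p = 0.0685). In limma fits with the mouse as a replicate block it passed, at an adjusted p of 0.0252, where 9.7% of all genes were called lower. It also passed with the mean over sites in place of the median, at 0.00834 (7.23% of genes lower), and with median centring, at 0.0132 (12.8% lower). With 1 library left out it passed in 1 of 4 fits, at adjusted p of 0.0197 to 0.601. Its counts of 6, 10, 0 and 7 did not pass the filter on low counts and ran the other way, higher in TM in both mice. Without the filter their log2 fold change was 1.23 and in DESeq2 1.27, or 2.25 with the block. The first and second were not called, and the third was given no adjusted p.

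Jam3, which encodes the adhesion molecule JAM-C, had scaled depths of 101, 61.8, 126 and 75.2, from 14, 6, 14 and 13 sites. The log2 fold change was -0.73 (standard error 0.29, 95% confidence interval -1.32 to -0.14, limma adjusted p = 0.101), and the limma adjusted p was 0.0389 when fitted with the replicate block, 0.0444 with the mean over sites and 0.0204 with median centring. With 1 library left out it passed in 0 of 4 fits, at adjusted p of 0.0639 to 0.648. In its 3′ UTR the TM depth was 0.406 times the CON depth in EC1 and 0.603 times in EC2. In introns, at median depths of 6.5, 2, 7 and 3 reads, it was 0.311 and 0.297 times. The counts of Jam3, 60, 57, 53 and 69, gave a log2 fold change of -0.17 with a confidence interval of -0.90 to 0.55 (edgeR adjusted p = 0.856). Of its 3200 exonic bases, 1159 (36.2%) are also in exons of Gm48796 on the opposite strand. Relative to its depth, its count was at the 79.9th to 85.8th percentile of genes. The site depths were not split by strand, and the part of the opposite gene in the count or in the depth was not tested.

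F11r, the gene of JAM-A, differed between groups by less than the spread of its libraries. Its counts were 34, 41, 40 and 69, or 30.2, 37.1, 36.5 and 39.2 CPM (log2 fold change 0.20, 95% confidence interval -0.57 to 0.97, edgeR adjusted p = 0.845). Its scaled depths were 609, 716, 912 and 793, higher in TM in EC1 and lower in EC2, with a log2 fold change of 0.02 (95% confidence interval -0.59 to 0.63, limma adjusted p = 0.981), whose sign turns with median centring or without EC1 CON or EC2 TM. Neither interval reaches a fall of the size seen in Cldn5.

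Jam2, the gene of JAM-B, was seen differently by the 2 readouts. Its counts were 61, 68, 63 and 65, close to those of Jam3, with a log2 fold change of -0.20 (95% confidence interval -0.93 to 0.53, edgeR adjusted p = 0.830). At its 2, 3, 5 and 1 listed exonic sites the median depth was just 14.5, 20, 27 and 34 reads, too few sites for the depth test. Its count per read of depth was at the 91.9th to 94.6th percentile of genes, against the 11.2th to 16.2th for Cldn5. No exon of another gene overlaps Jam2 on either strand in GENCODE vM21, and the cause of this difference was not tested.

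Ocln, the gene of occludin, a membrane protein of tight junctions, was at or under the limit of 3 counts in each library, with counts of 0, 2, 2 and 0. It had 2, 1, 2 and 1 listed exonic sites with median depths of 21, 14, 27 and 17 reads. Cgn, the gene of cingulin, an adaptor protein known from epithelial tight junctions, had counts of 0, 2, 0 and 4 and 1 listed exonic site, with 1 read, in EC2 TM. No fold is given for either gene.

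Tjp1, the gene of the scaffold ZO-1, which binds claudins and JAMs under the membrane, was close to equal in the groups. Its counts were 82, 82, 81 and 107, or 72.9, 74.2, 73.9 and 60.9 CPM (log2 fold change -0.13, 95% confidence interval -0.79 to 0.54, edgeR adjusted p = 0.891). Its scaled depths were 599, 649, 727 and 632, from 105 to 161 sites, with a log2 fold change of -0.04 (95% confidence interval -0.63 to 0.54, limma adjusted p = 0.953). Among the sites of its coding exons TM was at 1.06 times CON in EC1 and at 0.881 times in EC2.

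Ctnnb1 had the smallest fold change of the 6 members tested by counts. Its counts were 117, 128, 120 and 188, or 104, 116, 109 and 107 CPM, with a log2 fold change of 0.06 (95% confidence interval -0.56 to 0.68, edgeR adjusted p = 0.951). Its scaled depth was lower in TM in both mice, at 2100, 1826, 2544 and 2019, with a log2 fold change of -0.27 (95% confidence interval -0.93 to 0.39, limma adjusted p = 0.677). Its exons share 759 of 5192 bases (14.6%) with Ulk4 on the opposite strand, whose part in either readout was not tested.

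Across the members, 6 of 9 were tested by counts and 6 of 9 by depth, and Cldn5 was the 1 member called in each. Among all genes tested, 7.75% were called by counts and 11.8% by depth. Both TM libraries were below both CON libraries in 1 member by counts and in 4 by depth, namely Cldn5, Esam, Jam3 and Ctnnb1, where 23.9% and 25.1% of all genes tested were. The reverse was seen for F11r by counts, against 25.3% of genes. The median log2 change was -0.15 by counts and -0.50 by depth over the tested members, against 0.00174 and 0.01 over all genes.

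**Figure D3:**
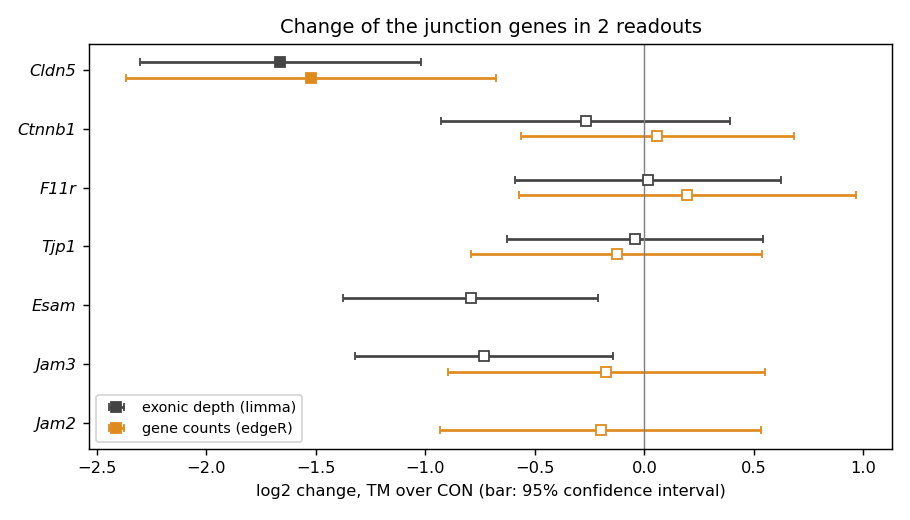
Log2 fold change of TM over CON with 95% confidence intervals for the 7 junction genes tested in at least 1 readout, by exonic depth (dark) and by gene counts (orange), with filled squares for an adjusted p at or under 0.05. Cldn5 lies at -1.66 and -1.52, the intervals of Esam and Jam3 by depth end below 0, and the remaining intervals cross 0.

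Other genes of the same structures were read from lists of tight junction, adherens junction, beta-catenin pathway and gap junction genes. Of 42 other tight junction genes, 20 were tested by counts and 1 rose, where 4.39% of all genes did. This was Arhgef2, a junction-associated activator of RhoA, at 25.8, 67.0, 36.5 and 85.9 CPM (log2 fold change 1.30, edgeR adjusted p = 0.0200). DESeq2 gave it the same change but did not call it, at an adjusted p of 0.122, or 0.136 with the block. By depth 15 were tested, of which 3 rose (6.39% of all genes did). With the replicate block, 4 of 20 rose and 2 fell by counts, where 600 of 7899 genes rose and 7.39% fell. By depth the block called 3 of 15 higher, where 663 of 6836 genes were. Arhgef2 was at a scaled depth of 131, 437, 171 and 550 (log2 fold change 1.71, limma adjusted p = 5.96e-05). Cxadr, an adhesion receptor of the same family as the JAMs, rose by 0.93 on the log2 scale of depth and Amotl2, an angiomotin-like scaffold, by 0.83. The counts of Cxadr ran the other way, at 135, 122, 138 and 101 CPM (log2 fold change -0.29, edgeR adjusted p = 0.661).

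Of 34 other adherens junction genes, 25 were tested by counts with 0 called by edgeR (3 at an unadjusted p under 0.05) and 0 by DESeq2 (1 unadjusted), and 27 by depth with 2 lower, where 5.44% of all genes were. The replicate block called 1 lower by counts, where 7.39% of genes were, and 1 higher and 5 lower by depth, where 9.7% were lower. The 2 genes were Cdh13, the lipid-anchored T-cadherin, at a scaled depth of 469, 243, 536 and 261 (log2 fold change -0.99, limma adjusted p = 0.0160), and Ctnnal1, an alpha-catenin-like protein, at 798, 485, 964 and 459 (log2 fold change -0.89, adjusted p = 0.0379). Of 24 beta-catenin partners and Wnt targets, 12 were tested by counts with 1 called lower, where 3.35% of all genes were. Lrp5, a Wnt co-receptor, was lower in edgeR and in limma, with log2 fold changes of -1.41 in counts (edgeR adjusted p = 0.0145) and -0.86 in depth (limma adjusted p = 0.0388). In DESeq2 its counts were not called, at an adjusted p of 0.103, or 0.107 with the block. By depth, among 11 tested, Tcf7l1 was also lower (-1.15) and Btrc higher (1.29), where 5.44% of all genes were lower and 6.39% higher. The counts of Tcf7l1 were not called (18.7, 16.3, 18.2 and 10.8 CPM, edgeR adjusted p = 0.671). Btrc was near the limit of detection, at a scaled depth of 13.5, 27.7, 11.8 and 34.7 and counts of 0, 0, 0 and 1. It was not called with the mean over sites. The replicate block called 2 higher and 3 lower by depth, where 663 of 6836 genes were called in each direction. Of 5 gap junction genes, 1 was tested by depth and called lower, where 5.44% of all genes were. This was Gja1 (connexin 43), at a scaled depth of 321, 186, 431 and 206 (log2 fold change -0.92, limma adjusted p = 0.0269). By counts 2 were tested and 0 called. The counts of Gja1 gave -1.15 (edgeR adjusted p = 0.118, or 0.0497 with the block, where 7.39% of genes were lower). DESeq2 did not call Gja1, at an adjusted p of 0.609, or 0.638 with the block. The median log2 fold change by depth was 0.11 over the tested tight junction genes and -0.31 over the adherens junction genes. By counts the medians were -0.083 and -0.136. The adherens junction list shares Cdh5, Pecam1, Tek and Icam2 with the endothelial markers.

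Altered bases at the junction genes were read from the 1571 sites that the table lists under their names, out of 1205261. A site was taken as passing at a depth of at least 5, with at least 3 altered reads and a rate (altered reads over all reads) of 0.05 to 0.95. In total 41 sites passed in at least 1 library, and 31, 31, 27 and 30 passed in the 4 libraries. F11r held 34 of them, Jam3 4, and Esam, Tjp1 and Ctnnb1 1 each. Cldn5, Jam2, Ocln and Cgn held none. Just 5 passing sites were exonic, 3 in Jam3 and 2 in F11r. The rates come from RNA, and whether the DNA of these mice carries the same base was not tested.

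The 4 exonic windows below hold the passing sites that carry the comparison of editing, on the strand of the gene. Capitals mark the sites that passed in at least 1 library. The sequences are from the GENCODE vM21 transcripts on GRCm38, and the deposited sites use mm10, which is the same build.
Jam3 3′ UTR, minus strand, chr9:27097449-27097478: ttcctttgttcaaaAgaAgttttagcattt
Jam3 3′ UTR, minus strand, chr9:27097531-27097560: aggcttgggctgctAgtgtttaattggaaa
F11r exon 6, plus strand, chr1:171461608-171461637: caggcccagaatggAtatgggacagccatg
F11r 3′ UTR, plus strand, chr1:171463498-171463527: gggggagctgcagaAaggaggggctgagga

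In the first Jam3 window, which lies in exon 9 of 9 of ENSMUST00000034472.15, the left capital is position 27097464. Altered reads there were 30 of 109, 6 of 45, 56 of 163 and 19 of 142. The rates were 0.275 (95% Wilson interval 0.200 to 0.366), 0.133 (0.0626 to 0.262), 0.344 (0.275 to 0.419) and 0.134 (0.0874 to 0.200). Both TM rates were thus below both CON rates, by 0.142 in EC1 and by 0.210 in EC2. Fisher's exact test, two-sided and adjusted over all sites tested in a mouse, gave an adjusted p of 0.942 in EC1 and 0.00218 in EC2, which compares the 2 libraries of a mouse and not the conditions. This was the 1 member site called in EC2 among 31 tested, where 1.79% of all sites were called higher in CON, and 0 of 31 were called in EC1, where 0.697% were. In TM 0 member sites were called higher, against 0.0504% of sites in EC1 and 0.0466% in EC2.

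The right capital of that window, 3 bases downstream at position 27097461, had lower rates, with 6 of 112, 2 of 45, 7 of 162 and 5 of 141 reads altered. In the second Jam3 window, position 27097546 had 5 of 78, 4 of 87 and 10 of 100 reads altered in EC1 CON, EC2 CON and EC2 TM and was not listed in EC1 TM. At these neighbouring sites the altered reads were too few to separate the groups. The intervals cover counting error only.

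F11r differed from Jam3, in that the rates at its exon 6 site were near equal in CON and TM. In exon 6 of 10 of ENSMUST00000043839.4, 479 of 1049, 577 of 1250, 676 of 1448 and 922 of 1993 reads were altered at position 171461622. These are rates of 0.457, 0.462, 0.467 and 0.463, with Wilson intervals that overlap. At the 3′ UTR site, position 171463512 in exon 10, the rates were 0.489 (357 of 730 reads) in EC1 TM and 0.523 (439 of 839) in EC2 CON, while EC1 CON and EC2 TM did not list it. The median depth over the listed 3′ UTR sites of F11r was 771 reads in EC1 CON and 1355 in EC2 TM, so that a site that is not listed there cannot be read as one without coverage, nor as a rate of 0.

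At 18 F11r sites that passed in the 4 libraries, median rates were 0.388, 0.458, 0.411 and 0.365. The pooled rates were 0.434, 0.449, 0.452 and 0.447 over 1610, 1830, 1765 and 2501 reads. Most of these reads, 1049, 1250, 1448 and 1993, were at the exon 6 site, so that the pooled rates largely repeat that site. Without the exon 6 site the median rates were 0.385, 0.455, 0.400 and 0.361. Of the 34 passing sites, 21 were intronic, 5 upstream, 6 downstream, and 18 lay in SINEs. Among the 888 genes with any site passing in the 4 libraries, where the median gene had 1, 22 genes had more than F11r. The neighbourhood shared this density. In a window that holds the F11r sites and 500000 bases on either side, 4.29% of listed sites passed in the 4 libraries. This compares with 0.869% on chromosome 1 and 0.254% of all sites. The 61 passing sites of the window belonged to 16 genes, F11r included, and 18 of them were those of F11r.

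**Figure D4:**
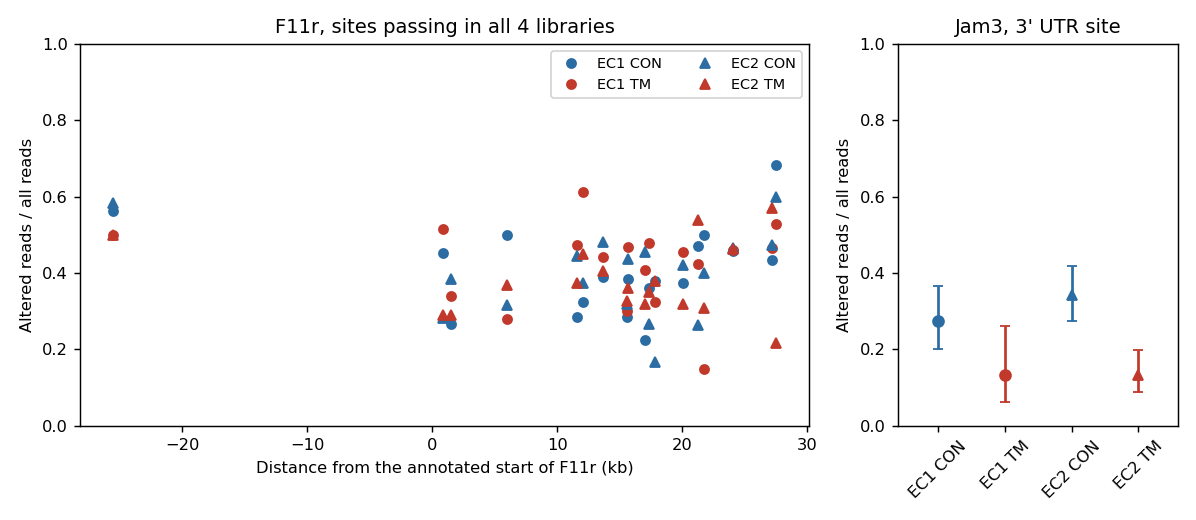
Left, rate (altered reads over all reads) at the 18 F11r sites that passed in the 4 libraries, against the distance in kb from the annotated start of the gene. Right, rate at the Jam3 3′ UTR site with 95% Wilson intervals. CON is blue, TM red, EC1 circles and EC2 triangles. F11r rates of the groups intermix, while the Jam3 rates are 0.275 and 0.344 in CON against 0.133 and 0.134 in TM.

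By a rate difference of at least 0.05 within a mouse, 12 of 35 member sites were higher in CON in EC1 and 15 of 36 in EC2, where 43.5% and 37.2% of all compared sites were. Higher in TM were 16 and 14, against 28.6% and 33.4%. In both mice 6 sites were higher in CON (background 7.35%), the Jam3 site at 27097464 and 5 of F11r, and 4 sites, all of F11r, were higher in TM (background 3.92%). An example of the latter is the intronic F11r site at position 171454084, in a PB1D10 element, with 4 of 28, 10 of 18, 1 of 9 and 13 of 19 reads altered. Its Fisher adjusted p was 0.365 in EC1 and 0.305 in EC2.

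The abundant members without passing exonic sites were read at high depth. Cldn5 had 88 listed exonic sites, Tjp1 429 and Ctnnb1 355. The highest rate at sites with at least 3 altered reads was 0.00365 in Cldn5, 0.00733 in Tjp1 and 0.00259 in Ctnnb1. The intronic Tjp1 site at position 65314656 passed in the 4 libraries, with 5 of 16, 6 of 14, 9 of 15 and 10 of 17 reads altered. The intronic Esam site at position 37532316 was altered in 11 of 11, 8 of 8, 13 of 14 and 13 of 13 reads, so that it was under the limit of 0.95 in EC2 CON alone.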

How the data were processed

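The authors trimmed reads with Trimmomatic 0.38, aligned them with STAR 2.6.1a to mm10 (GRCm38) and counted them with HTSeq 0.11.2 under default settings, and they deposited raw counts per gene. They called sites per library with BCFtools, and the deposited site table gives counts of reads per base and the rate as a fraction of altered reads. Its columns were given to libraries through a supplementary table, with equal reads at 1998 of 1998 sites found. Summary rows were left out of gene counts.

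Tests on counts used edgeR 4.0.16 (TMM, filterByExpr, quasi-likelihood) and those on log2 exonic depth limma 3.58.1 (trend), with no block as main, Benjamini-Hochberg adjustment over all genes tested and a threshold of 0.05. Same-mouse libraries share an animal, and their deviations correlated with r = 0.163 (counts) and 0.100 (depth). Sites used scipy 1.17.1. DESeq2 1.42.0, the replicate block, other filters and scalings, and leaving out each library were alternatives. Scripts were tested on simulated data. The 9 members were named, and other listed genes where called, of which 1 is not reported here. Members and lists were chosen with earlier results of these data known. Gene positions are from GENCODE vM21. P-values of the gene tests rest on 2 libraries per group, from 2 mice, with the variance of a gene drawn towards that of other genes. Those of Fisher's exact test measure counting error of reads between the 2 libraries of a mouse. Altered bases are listed per library, so sites differ between libraries, which can move a median depth.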

Additional observations from a re-analysis of the deposited data

How the results depend on the processing

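For counts, edgeR with the mouse as a replicate block called 1184 genes and DESeq2 363, or 399 with the block, against 612. Both edgeR fits tested 7899 genes and both DESeq2 fits 17237. DESeq2 called 0 members, with or without the replicate block, and the log2 fold change of Cldn5 was -1.51 and -1.53 (adjusted p = 0.169 and 0.221). Of the genes DESeq2 tested, 1100 had an unadjusted p under 0.05, or 963 with the block. Leaving out 1 library gave 0 to 1 members called, with -1.89 to -1.18 for Cldn5, and without TM replicate 2 the log2 fold changes of Jam2, Jam3 and Tjp1 turned to 0.13, 0.00685 and 0.00171 (with 1 library left out: -0.59 to 0.13, -0.37 to 0.00685 and -0.27 to 0.00171).

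For exonic depth, limma with the replicate block called 1326 genes and 3 members against 809 and 1, adding Esam and Jam3, as did the mean in place of the median (3) and median centring (3). Median centring called 1442 genes, 39.4% of them higher in TM against 54.0%, and gave -0.0588 for F11r. Fewer genes could be tested with some alternatives, against 809 called of 6836 in the main fit. Sites that both libraries of a mouse list gave 119 called of 1506 tested. Sites listed in all 4 libraries, an alternative chosen after seeing the data, gave 140 of 621. Neither tested Cldn5, so 0 members were called. At least 10 sites per library gave 539 of 3151. Leaving out 1 library gave 371 to 912 genes and 0 to 2 members called, with -0.28 to 0.31 for F11r, whose sign turned without CON replicate 1 (-0.28) and without TM replicate 2 (-0.06), and -0.18 to 0.10 for Tjp1. The replicate block changed no other call of a member in edgeR or limma.

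A depth of at least 20 reads left 10 passing member sites in EC2 CON, 6 higher in CON in EC2, and 2 in each direction in both mice. A rate difference of 0.10 left 6 and 10 sites higher in CON and TM in EC1, 7 and 8 in EC2, and 3 and 2 in both mice. Fisher's exact test left 0 and 0 in EC1, 1 and 0 in EC2, and 0 and 0 in both. The cause of these differences was not tested, apart from the smaller numbers of genes or samples that some alternatives allow. Ocln and Cgn were near the limit of detection in both readouts, and Jam2 had too few listed exonic sites for the depth test. Esam had too few counts for the count test, at 6, 10, 0 and 7. Its median exonic depths were 195, 119.5, 293 and 228 reads, and the cause of this difference was not tested.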
